A study of Homo sapiens with 12 samples.

Results

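The enzymes of glycolysis were followed across 12 RNA sequencing libraries of human glioblastoma cells. The set held 10 genes, HK2, GPI, PFKP, ALDOA, TPI1, GAPDH, PGK1, ENO1, PKM and LDHA, taken by symbol from a deposited table of 63241 genes, and each symbol matched 1 row. The study compared 4 groups of 3 libraries each. They were T98G cells with PEPD over-expressed (PEPD-OE), T98G cells labelled NC, U251 cells with PEPD-OE and U251 cells labelled NC. T98G and U251 are established glioblastoma lines. PEPD, peptidase D or prolidase, is an enzyme that cleaves dipeptides ending in proline or hydroxyproline. The labels do not spell out NC, the vector, the time after its delivery, or whether the over-expressing cells were a pool or a clone. They also do not say whether replicates were separate cultures, so the p-values measure the spread between these libraries, which may be technical.

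Glycolysis splits glucose into pyruvate in the cytosol and yields ATP and NADH. Hexokinase (HK2) traps glucose as a phosphate, glucose phosphate isomerase (GPI) and phosphofructokinase (PFKP) prepare it, aldolase (ALDOA) cleaves it, and triose phosphate isomerase (TPI1) interconverts the triose products. GAPDH makes the NADH, phosphoglycerate kinase (PGK1) and pyruvate kinase (PKM) make ATP, enolase (ENO1) works between them, and lactate dehydrogenase (LDHA) turns pyruvate into lactate and regenerates NAD. Many tumours, glioblastoma among them, run this pathway to lactate in the presence of oxygen, and several of its genes are textbook targets of the hypoxia-inducible factors (HIF) and of MYC.

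Libraries held 464056 to 924204 counts, and the 10 genes took 2800 to 5805 counts of each library, or 0.410% to 0.682%. The lowest share belonged to U251 PEPD-OE replicate 1, which also stood apart from its group. Its counts differed from those of the other U251 PEPD-OE libraries by a chi-square of 2.48 and 3.03 per degree of freedom, against 1.39 to 2.11 for the pairs of libraries within the other groups and 1.51 for the remaining pair of its own. Values without that library stand beside the U251 results below. Levels are given in CPM, counts scaled to a common library size by the TMM method of edgeR, and 3 counts amounted to 3.20 to 6.33 CPM. PEPD itself had 175, 156 and 162 CPM in T98G PEPD-OE, against 19.0, 2.60 and 11.3 CPM in T98G NC. It had 170, 167 and 187 CPM in U251 PEPD-OE, against 13.2, 6.44 and 8.97 CPM in U251 NC. PEPD rose by 4.04 log2 units (SE 0.25, adjusted p = 1.71e-32) in T98G and by 4.16 (SE 0.23, adjusted p = 1.86e-35) in U251. The NC groups held 20 counts of PEPD in T98G and 23 in U251, and on so few the SE understates the error. Of 10 genes listed as glioblastoma and neural markers, 8 were tested. Of these, 3 fell in T98G and 0 rose (1 was higher at an unadjusted p below 0.05 by edgeR, and 0 by DESeq2), and in U251 4 fell and 1 rose. Of all genes tested, 17.7% rose and 14.7% fell in T98G, and 4.13% rose and 4.42% fell in U251. OLIG2 was at 0 counts in every library, CHI3L1 had 18 counts in all, and SOX2 had 1 count in each T98G group against 670 counts in U251 PEPD-OE and 912 counts in U251 NC. Of 17 markers of immune, endothelial, epithelial, mature neural and stromal cells, 1, the neuronal gene SYT1, was tested, and EPCAM, KRT5 and VWF were at 0. SYT1 had 67 counts in U251 PEPD-OE against 28 counts in U251 NC and rose there by 1.22 log2 units (adjusted p = 0.0186). DESeq2 did not call it, and it shares exon bases with AC090709.1 on the other strand. The part of SYT1 in the other results was not tested.

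The strand on which counts were taken bears on how each level can be read. The library kit keeps the strand, and the counting setting is not given in the sources used here. Genes whose exons share bases with an exon on the other strand held 62.2% to 70.1% of all counts in each library. Of the members, 5 (HK2, ALDOA, TPI1, GAPDH and ENO1) share exon bases with such a gene in GENCODE release 29 (GRCh38), and GPI, PFKP, PGK1, PKM and LDHA share none. Whether counts under a member are reads of its own transcript was not tested.

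GAPDH was the member whose partner on the other strand held the most counts. It lies on the plus strand at chr12:6533927-6538374, with 2981 exon bases, and the antisense gene AC006064.4 lies on the minus strand at chr12:6537794-6538370. All 422 exon bases of AC006064.4 lie inside exons of GAPDH, at its end. Over the 12 libraries, AC006064.4 held 40436 counts and GAPDH held 19473. Per kb of exon, AC006064.4 had 13.0 to 16.3 times the counts of GAPDH in each library, with a median of 14.8. In every library, then, the shorter antisense gene carried the higher count per length. The other partners held few counts. AC093512.1, with 520 bases all inside ALDOA exons, had 24 counts in all and at most 6 in a library. SPSB2 shares 14 bases with TPI1 and had 87 counts, HK2-DT shares 7 bases with HK2 and had 21 counts, and ENO1-AS1 shares 126 bases with ENO1 and had 1 count.

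**Figure D1:**
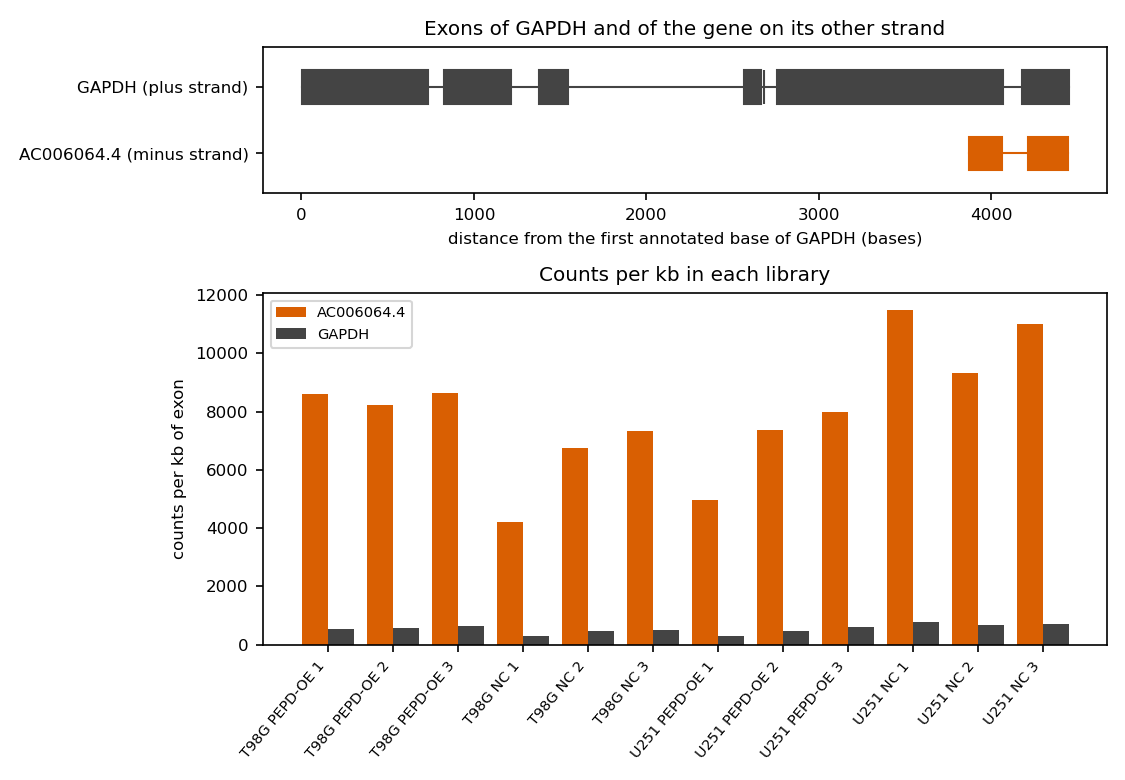
The upper panel maps the exons of GAPDH (plus strand, dark) and AC006064.4 (minus strand, orange) by distance in bases from the first annotated base of GAPDH. The lower panel plots counts per kb of exon of both genes in each of the 12 libraries. AC006064.4 stands above GAPDH in all of them, by 13.0 to 16.3 times.

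Genes on the same strand also share exon bases with some members. AC093512.2 shares 1657 of the 3916 exon bases of ALDOA and had 8 counts in all, and AC092073.1 shares 542 bases with GPI and had 0. ATP7A shares 97 bases with PGK1 and had 254 counts. Processed pseudogenes named after the members, to which reads of near-identical sequence could go, held 78 counts for the 65 of GAPDH, 6 for the 5 of TPI1 and 143 for the 6 of LDHA. All of the last were under LDHAP2, with 31 counts in T98G PEPD-OE, 38 in T98G NC, 28 in U251 PEPD-OE and 46 in U251 NC. The pseudogenes of the other members had none.

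Promoter stretches are shown for ALDOA, GAPDH and PGK1, which rose in T98G, and for HK2 and LDHA, the members with the largest differences between the lines. They come from the RefSeq promoter table (GRCh38.p14), plus strand, and were trimmed to bases outside every annotated exon of release 29. No stretch was prepared for GPI, which also rose in T98G. Capitals mark each ACGTG, the core of the HIF binding motif, on either strand. In CACGTG, the E-box bound by MYC and related factors, that core reads on both strands. Only stretches with at least 1 ACGTG were kept, and the stretch with the most marked places was shown for each gene. The motif is therefore in every stretch by selection. The stretches are chr2:74834920-74835169 for HK2, chr16:30065510-30065672 for ALDOA, chr12:6535142-6535263 for GAPDH, chrX:78103998-78104173 for PGK1 and chr11:18394313-18394387 for LDHA.
HK2: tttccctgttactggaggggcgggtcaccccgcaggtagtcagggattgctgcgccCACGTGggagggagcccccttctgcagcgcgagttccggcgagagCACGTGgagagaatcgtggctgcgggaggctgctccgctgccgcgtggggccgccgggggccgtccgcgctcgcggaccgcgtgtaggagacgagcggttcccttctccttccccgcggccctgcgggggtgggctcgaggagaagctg
ALDOA: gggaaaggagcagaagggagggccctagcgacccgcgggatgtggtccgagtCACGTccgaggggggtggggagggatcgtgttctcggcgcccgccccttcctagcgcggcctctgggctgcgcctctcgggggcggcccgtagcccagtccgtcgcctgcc
GAPDH: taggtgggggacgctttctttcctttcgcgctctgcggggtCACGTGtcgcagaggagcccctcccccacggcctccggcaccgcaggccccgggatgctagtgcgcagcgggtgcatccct
PGK1: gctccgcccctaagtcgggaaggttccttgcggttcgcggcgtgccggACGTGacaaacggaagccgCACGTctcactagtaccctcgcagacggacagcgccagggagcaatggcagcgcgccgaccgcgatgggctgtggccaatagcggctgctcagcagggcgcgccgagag
LDHA: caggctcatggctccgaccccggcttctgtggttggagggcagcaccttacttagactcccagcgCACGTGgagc
The E-box occurs at 2 places in the HK2 stretch and at 1 place each in those of GAPDH and LDHA. Windows from 250 bases before each RefSeq start to 50 after it were searched for the 10 members (18 windows) and for all genes (35116 windows), on both strands. ACGTG was found for 8 members, ENO1 and PKM being the exceptions, and in 21.4% of all windows. The variant GCGTG was found for 7 members and in 36.5% of all windows. CACGTG, which contains ACGTG, was found for 4 members (HK2, ALDOA, GAPDH and LDHA) and in 7.26% of all windows. The GC box GGGCGG was found for 9 members, all but GPI, and in 45% of all windows. TGACNNNGC, the core of the antioxidant response element, was found for GAPDH and PKM and in 13.3% of all windows, and TATAAA for no member and in 11.5% of all windows. Several members have more than 1 window, so counts of members and shares of windows are not on the same base. Of the 18 member windows, ACGTG was in 11, GCGTG in 9, CACGTG in 4, GGGCGG in 12, TGACNNNGC in 2 and TATAAA in 0.

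The levels of the 10 genes differed widely. Length is that of all annotated exons of a gene merged, from 2700 bases for TPI1 to 10680 for GPI. With that and the strand setting unknown, the order need not be that of transcripts. Per kb of exon and averaged over the 12 libraries, GAPDH led with 733 CPM per kb, followed by PKM with 225, ENO1 with 182 and TPI1 with 166. A gap separated these from PGK1 with 35.0, LDHA with 22.4, ALDOA with 21.9, GPI with 20.6, PFKP with 19.3 and HK2 with 9.23 CPM per kb. GAPDH and PKM together took 65.6% of the 56035 counts under the 10 genes. The order held within each group for the top of the list, with GAPDH first and PKM next. TPI1 stood above ENO1 in T98G PEPD-OE (214 against 186 CPM per kb) and in T98G NC (193 against 175). It stood below ENO1 in U251 PEPD-OE (117 against 166) and in U251 NC (141 against 201). LDHA varied most between groups, with 42.9 CPM per kb in T98G PEPD-OE and 44.8 in T98G NC, against 1.33 in U251 PEPD-OE and 0.754 in U251 NC, where it was the lowest of the 10. HK2, the lowest of the 10 in both T98G groups, had 14.9 CPM per kb in T98G PEPD-OE and 14.2 in T98G NC.

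**Figure D2:**
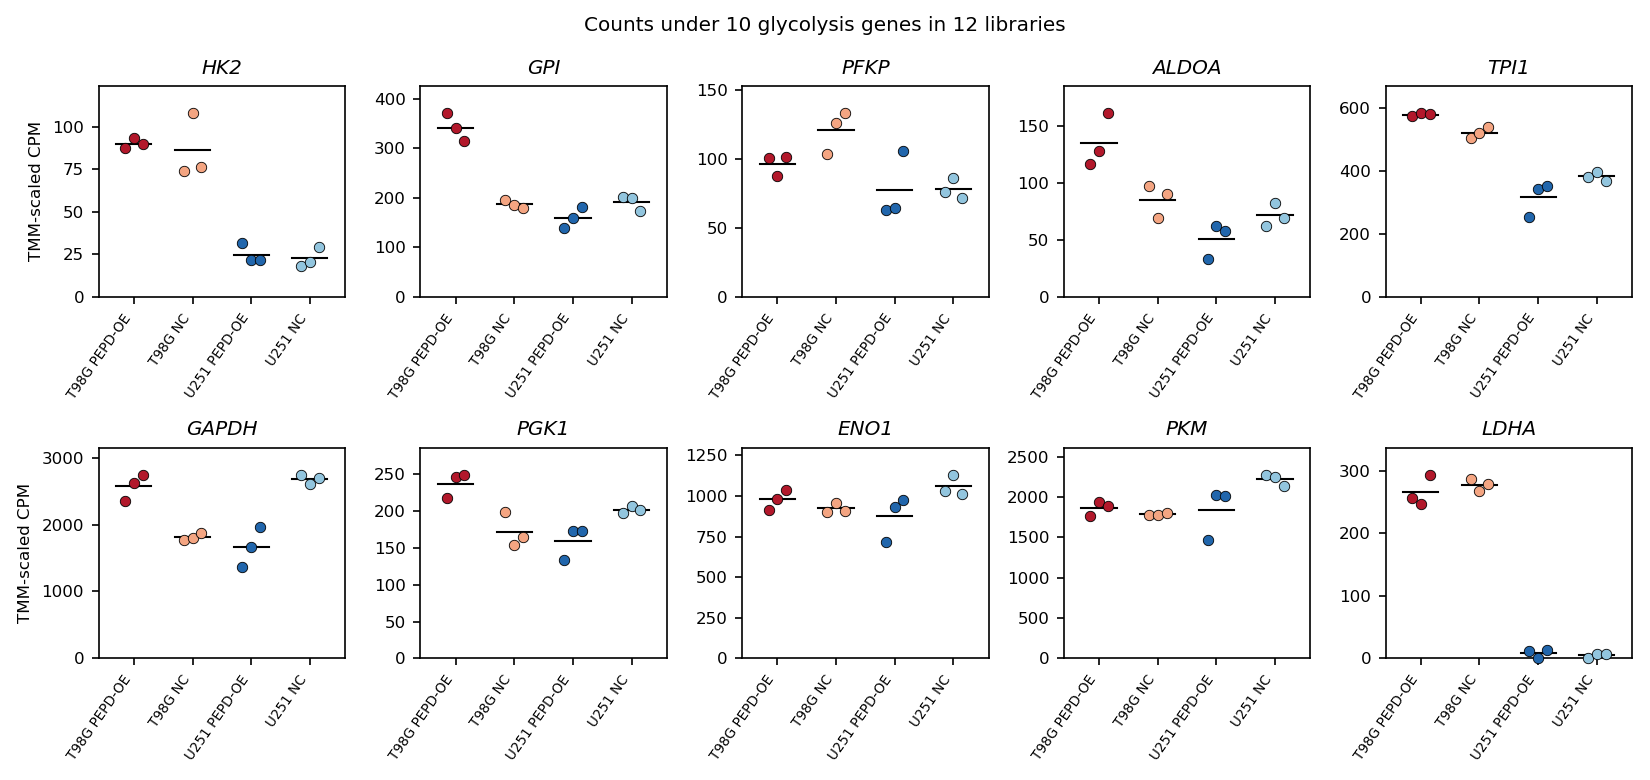
Each panel plots 1 gene in TMM-scaled CPM on a linear axis from 0, with 1 point per library (replicates 1 to 3 from left to right) and a bar at the mean of the 3 libraries. LDHA lies between 0 and 12.8 CPM in all 6 U251 libraries, against 248 to 293 CPM in the 6 T98G libraries, and GAPDH is higher in PEPD-OE than in NC in T98G and lower in U251.

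In T98G, 4 of the 10 enzymes rose with PEPD over-expression and none fell, where 32.3% of all 8773 genes tested changed, 17.7% upward and 14.7% downward. With no adjustment of p, 1 member (PFKP) was lower by edgeR at a p below 0.05, and DESeq2 called 0 lower. The 4 were GPI, ALDOA, GAPDH and PGK1, with log2 fold changes between 0.48 and 0.87. PFKP and TPI1, whose steps lie between theirs, were not called, at -0.35 and 0.15. The median over the 10 members was 0.12, against 0 over all genes tested. The libraries of the groups did not overlap for 5 members that were higher in PEPD-OE and 1 that was lower, where 43.5% of all genes did not overlap, 22.6% upward and 20.9% downward. In bulk libraries, fewer cells with a transcript and less of it per cell cannot be told apart.

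GPI, which turns glucose phosphate into fructose phosphate, changed most. It had 370, 340 and 313 CPM in T98G PEPD-OE, against 196, 185 and 179 CPM in T98G NC. The lowest PEPD-OE library stood well above the highest NC library. GPI rose by 0.87 log2 units (SE 0.13, 1.83-fold, adjusted p = 2.53e-09). Its exons share no bases with the other strand in release 29. GPI and PEPD lie 837685 bases apart on chromosome 19.

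ALDOA, which splits fructose bisphosphate into triose phosphates, had 117, 128 and 161 CPM in T98G PEPD-OE, against 97.1, 68.9 and 90.3 CPM in T98G NC. The groups did not overlap, though the spread within each was wide. ALDOA rose by 0.69 log2 units (SE 0.17, 1.61-fold, adjusted p = 0.000587). GAPDH, which oxidises glyceraldehyde phosphate and yields NADH, had 2358, 2625 and 2738 CPM in T98G PEPD-OE, against 1775, 1806 and 1875 CPM in T98G NC. All 3 PEPD-OE libraries exceeded all 3 NC libraries. GAPDH rose by 0.50 log2 units (SE 0.08, 1.42-fold, adjusted p = 1.03e-07). AC006064.4 on its other strand had 5369, 5405 and 5186 CPM in T98G PEPD-OE, against 3750, 3698 and 3875 CPM in T98G NC. That gene rose by 0.50 log2 units (SE 0.07, adjusted p = 1.30e-09), the same size as GAPDH to 2 decimals. PGK1, the first ATP-yielding kinase of the pathway, had 217, 246 and 249 CPM in T98G PEPD-OE, against 198, 155 and 164 CPM in T98G NC. The highest NC library came close to the lowest PEPD-OE library without reaching it. PGK1 rose by 0.48 log2 units (SE 0.13, 1.40-fold, adjusted p = 0.00251).

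The other 6 members were not called in T98G. TPI1 had 572, 581 and 580 CPM in T98G PEPD-OE, against 504, 518 and 538 CPM in T98G NC, a narrow separation of 0.15 log2 units (SE 0.11, adjusted p = 0.297). PFKP, the platelet form of phosphofructokinase and a main control point of the pathway, had 101, 87.3 and 101 CPM in T98G PEPD-OE, against 103, 126 and 133 CPM in T98G NC. Its PEPD-OE libraries all lay below its NC libraries, at -0.35 log2 units (SE 0.17, adjusted p = 0.103). HK2, the inducible hexokinase of many tumours, had 87.3, 93.5 and 89.8 CPM in T98G PEPD-OE, against 73.9, 108 and 76.5 CPM in T98G NC, and the groups overlapped. At the end of the pathway, log2 fold changes were 0.08 (SE 0.09) for ENO1, 0.06 (SE 0.08) for PKM and -0.06 (SE 0.14) for LDHA. With library totals in place of TMM, the median of all genes moved by -0.22, the values of HK2, TPI1, ENO1 and PKM turned negative, PFKP was called lower at -0.56 (adjusted p = 0.00532; -0.38 and adjusted p = 0.0407 with the T98G libraries fitted alone), and PGK1 was no longer called at 0.26 (adjusted p = 0.119). GPI, ALDOA and GAPDH were still called higher, at 0.66, 0.47 and 0.28. Mitochondrially encoded genes took 7.95% to 9.73% of counts in T98G PEPD-OE libraries, against 5.07% to 6.14% in T98G NC libraries. With those genes and 4 other abundant genes removed before scaling, the same number of members, 4, was called higher.

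In U251, 3 of the 10 enzymes fell with PEPD over-expression and none rose, where 8.55% of all genes tested changed, 4.13% upward and 4.42% downward. By edgeR, 0 were higher at an unadjusted p below 0.05 and 6 were lower, and DESeq2 called 0 higher and 3 lower. GAPDH fell most, and ENO1 and PKM fell by less. Of the 10 members, 7 had a negative log2 fold change, and the median was -0.27, against 0.0017 over all genes tested. Without U251 PEPD-OE replicate 1, 8 had a negative value and the median of the 10 was -0.14. The libraries of the groups did not overlap for 6 members, all lower in PEPD-OE, where 22.4% of all genes did not overlap, 11.4% upward and 11% downward.

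GAPDH had 1365, 1667 and 1958 CPM in U251 PEPD-OE, against 2744, 2614 and 2692 CPM in U251 NC. The PEPD-OE libraries were spread out, replicate 1 being lowest, and all lay below the NC libraries. GAPDH fell by 0.69 log2 units (SE 0.08, adjusted p = 6.01e-12), 1.61-fold lower. AC006064.4 had 3151, 3703 and 3604 CPM in U251 PEPD-OE, against 5836, 5063 and 5942 CPM in U251 NC. It too fell by 0.69 log2 units (SE 0.07, adjusted p = 4.01e-15). With each of the 12 libraries left out in turn, the GAPDH value ranged from -0.82 to -0.57 and stayed called each time (highest adjusted p = 1.16e-08). Without U251 PEPD-OE replicate 1 it was -0.57.

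ENO1, which makes phosphoenolpyruvate, had 717, 932 and 976 CPM in U251 PEPD-OE, against 1034, 1130 and 1014 CPM in U251 NC. PKM, which passes the phosphate of phosphoenolpyruvate to ADP, had 1472, 2021 and 2010 CPM in U251 PEPD-OE, against 2273, 2253 and 2131 CPM in U251 NC. For both genes, U251 PEPD-OE replicate 1 lay far below the other libraries of its group. Both fell by 0.27 on the log2 scale, ENO1 with an SE of 0.09 (adjusted p = 0.0443) and PKM with an SE of 0.08 (adjusted p = 0.0192). Without U251 PEPD-OE replicate 1, ENO1 was at -0.15 (adjusted p = 0.355) and PKM at -0.14 (adjusted p = 0.315), and neither was called. ENO1 also lost its call with robust estimation off (adjusted p = 0.0654) and without T98G PEPD-OE replicate 3, T98G NC replicate 3 or any 1 of the U251 NC libraries (adjusted p of 0.0539 to 0.195), and PKM without U251 NC replicate 1 (adjusted p = 0.0955) or replicate 2 (adjusted p = 0.0653). With library totals in place of TMM, with a looser or no low-count filter, or with the U251 libraries fitted alone, neither was called and GAPDH was the single member called.

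The other 7 members were not called in U251. ALDOA had 33.1, 62.1 and 57.7 CPM in U251 PEPD-OE, against 62.6, 82.4 and 69.2 CPM in U251 NC, at -0.45 log2 units (SE 0.19, adjusted p = 0.150). PGK1 had 134, 173 and 173 CPM in U251 PEPD-OE, against 197, 207 and 201 CPM in U251 NC, at -0.32 (SE 0.13, adjusted p = 0.117). TPI1 had 252, 343 and 352 CPM in U251 PEPD-OE, against 380, 397 and 368 CPM in U251 NC, at -0.26 (SE 0.11, adjusted p = 0.125). For these 3 genes too, replicate 1 was the lowest PEPD-OE library and the groups did not overlap. Without it, ALDOA was at -0.25, PGK1 at -0.22 and TPI1 at -0.13. GPI had 139, 159 and 182 CPM in U251 PEPD-OE, against 202, 198 and 173 CPM in U251 NC, at -0.25 (SE 0.13, adjusted p = 0.269), with overlap, and at -0.17 without replicate 1. PFKP had 63.3, 64.5 and 106 CPM in U251 PEPD-OE, against 75.8, 86.3 and 71.7 CPM in U251 NC. HK2 had 31.6, 21.5 and 21.4 CPM in U251 PEPD-OE, against 18.1, 20.6 and 29.5 CPM in U251 NC. The groups of both genes overlapped, with log2 fold changes of 0.03 (SE 0.18) for PFKP and 0.10 (SE 0.29) for HK2, and without U251 PEPD-OE replicate 1 of 0.14 for PFKP and -0.08 for HK2. LDHA stood near the counting floor with 8, 0 and 12 counts in U251 PEPD-OE, against 1, 5 and 5 counts in U251 NC, and its value of 0.81 log2 units (SE 0.54, adjusted p = 0.426) rested on 31 counts in all. It was 0.54 without U251 PEPD-OE replicate 1.

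**Figure D3:**
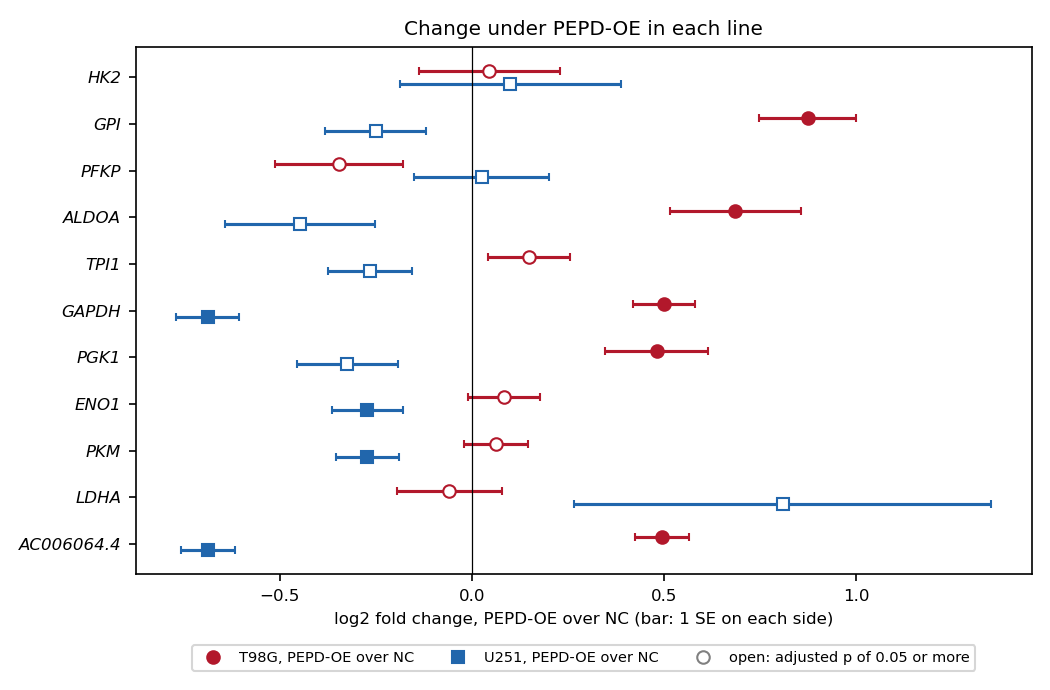
The plot gives the log2 fold change of PEPD-OE over NC with 1 SE on each side for the 10 members in pathway order and for AC006064.4, with T98G as red circles and U251 as blue squares. Filled marks passed an adjusted p of 0.05. The 4 filled T98G members lie between 0.48 and 0.87 and the 3 filled U251 members between -0.69 and -0.27, and AC006064.4 lies beside GAPDH in each line.

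The change in T98G minus the change in U251 was called for 7 of the 10 enzymes, all in the direction of T98G, where 27.7% of all genes tested were called, 14.1% in that direction. In the other direction, 0 had an unadjusted p below 0.05 by edgeR, and DESeq2 called 0. This test uses the libraries of both comparisons above and is no independent repeat of them. GAPDH had the largest difference, 1.19 log2 units (SE 0.12, adjusted p = 2.47e-17), beside 1.18 (SE 0.10, adjusted p = 2.57e-21) for AC006064.4. ALDOA followed with 1.13 (SE 0.26, adjusted p = 0.000213), GPI with 1.12 (SE 0.18, adjusted p = 1.36e-07) and PGK1 with 0.81 (SE 0.19, adjusted p = 0.000310). These are the 4 members that rose in T98G. They stayed called with each library left out in turn, with highest adjusted p of 8.87e-14 for GAPDH, 0.00332 for ALDOA, 4.14e-06 for GPI and 0.00486 for PGK1. Without U251 PEPD-OE replicate 1 they were 1.06 for GAPDH, 0.93 for ALDOA, 1.03 for GPI and 0.70 for PGK1. The differences of TPI1 (0.41, adjusted p = 0.0304), ENO1 (0.36, adjusted p = 0.0305) and PKM (0.34, adjusted p = 0.0203) were smaller. Without U251 PEPD-OE replicate 1 they were 0.28 for TPI1 (adjusted p = 0.146), 0.23 for ENO1 (adjusted p = 0.149) and 0.20 for PKM (adjusted p = 0.150), and none was called. The number called was 4 without that library and 4 without T98G PEPD-OE replicate 2. TPI1 also lost its call without T98G PEPD-OE replicate 3, T98G NC replicate 1 or 2, or U251 NC replicate 1 or 2. ENO1 lost it without T98G PEPD-OE replicate 3, T98G NC replicate 1 or 3, or U251 NC replicate 2, and PKM without U251 NC replicate 1. With library totals in place of TMM, the differences were 0.11 for TPI1, 0.06 for ENO1 and 0.04 for PKM, none of them called, and PFKP was called at -0.67 (adjusted p = 0.0274). With upper-quartile scaling, TPI1 (adjusted p = 0.0570) and ENO1 (adjusted p = 0.0639) were not called. HK2 (-0.06, SE 0.34), PFKP (-0.37, SE 0.24) and LDHA (-0.87, SE 0.56) were not called. LDHA was called at -1.46 (adjusted p = 0.0256) without U251 PEPD-OE replicate 2, the library in which it had 0 counts.

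Between the lines, LDHA set T98G and U251 apart by far more than any other member. It had 257, 248 and 293 CPM in T98G PEPD-OE, against 12.1, 0 and 12.8 CPM in U251 PEPD-OE. It had 287, 268 and 280 CPM in T98G NC, against 1.20, 6.44 and 6.40 CPM in U251 NC. No T98G library came near any U251 library. The log2 difference was 4.99 (SE 0.24, adjusted p = 1.38e-36) between the PEPD-OE groups and 5.86 (SE 0.27, adjusted p = 2.52e-38) between the NC groups. The U251 sides rested on 20 counts in PEPD-OE and 11 counts in NC over 3 libraries each. On so few counts, an SE taken from the test statistic understates the error. The pseudogene LDHAP2 had 28 counts in U251 PEPD-OE and 46 in U251 NC, above LDHA in both. It had 31 counts in T98G PEPD-OE and 38 in T98G NC. Whether reads of LDHA went to it was not tested, nor whether counts under LDHA are reads of its own transcript. LDHB, which makes the other subunit of lactate dehydrogenase, was also higher in T98G, by 1.04 (adjusted p = 1.48e-08) between the PEPD-OE groups and by 0.95 (adjusted p = 2.52e-07) between the NC groups. Per kb of exon, LDHB had 48.9 CPM in T98G PEPD-OE and 47.2 in T98G NC, against 23.6 in U251 PEPD-OE and 24.3 in U251 NC. In T98G it stood close to LDHA per kb, and in U251 it stood far above it.

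In the NC cells, 4 members were higher in T98G than in U251 and 2 were lower, where 48.7% of all genes tested differed, 24.4% upward and 24.3% downward. Besides LDHA, HK2 was higher by 1.94 (SE 0.23, 3.84-fold, adjusted p = 3.04e-13), PFKP by 0.65 (SE 0.17, adjusted p = 0.000570) and TPI1 by 0.45 (SE 0.11, adjusted p = 0.000207). GAPDH was lower in T98G NC, at -0.56 (SE 0.08, adjusted p = 1.33e-09), and so was PKM, at -0.31 (SE 0.08, adjusted p = 0.000719). GPI (-0.04), ALDOA (0.24), PGK1 (-0.25) and ENO1 (-0.20) were not called. In the PEPD-OE cells, 7 members were higher in T98G and none was lower, where 52.6% of all genes tested differed, 26.3% upward and 26.3% downward. At an unadjusted p below 0.05, edgeR had 0 lower, and DESeq2 called 0 lower. HK2 was higher by 1.89 (SE 0.22), ALDOA by 1.37 (SE 0.18), GPI by 1.08 (SE 0.13), TPI1 by 0.86 (SE 0.11), GAPDH by 0.63 (SE 0.08) and PGK1 by 0.56 (SE 0.13, adjusted p = 0.000138). Without U251 PEPD-OE replicate 1, all 7 were still called, with GAPDH at 0.49 and PGK1 at 0.44. GAPDH stood on opposite sides in the PEPD-OE and NC comparisons of the lines, each of them called. These comparisons use the same libraries as those above.

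**Figure D4:**
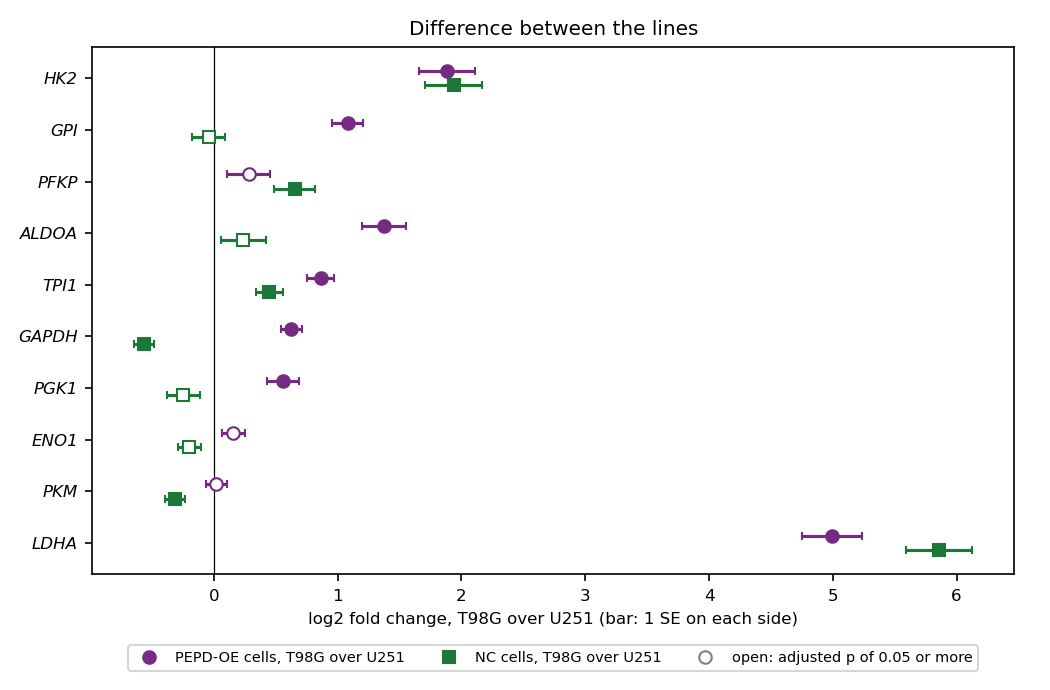
The plot gives the log2 fold change of T98G over U251 with 1 SE on each side for the 10 members, in PEPD-OE cells (purple circles) and in NC cells (green squares). Filled marks passed an adjusted p of 0.05. LDHA lies at 4.99 and 5.86, HK2 at 1.89 and 1.94, and GAPDH lies at 0.63 in PEPD-OE cells and at -0.56 in NC cells. The LDHA bars understate the error on its few U251 counts.

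Listed isoenzymes and relatives of the glycolytic enzymes were sparse, with 11 of 24 genes tested. In T98G, 3 of them rose, none fell and the median was 0.29, and in U251 none of the 11 was called by edgeR. Of all genes tested, 17.7% rose and 14.7% fell in T98G, and 8.55% changed in U251. At an unadjusted p below 0.05, edgeR had 0 lower in T98G, and 1 higher (PGAM5, a mitochondrial protein phosphatase named for its likeness to the mutases) and 0 lower in U251. DESeq2 called 2 higher and 0 lower in T98G and 0 in U251. HK1, the hexokinase of most adult tissues, had 300, 293 and 262 CPM in T98G PEPD-OE, against 167, 168 and 166 CPM in T98G NC, and rose by 0.77 (SE 0.13, adjusted p = 2.74e-07). HK1 shares exon bases with RPS15AP28 on the other strand. Its change differed between the lines by 0.88 (adjusted p = 6.16e-05), where HK2 had a difference of -0.06. Per kb, HK1 stood above HK2 in every group, with 45.3 against 14.9 CPM per kb in T98G PEPD-OE and 28.1 against 3.75 in U251 NC. ENO2, the neuronal enolase, rose by 0.71 in T98G (SE 0.22, adjusted p = 0.00692) and PFKL, the liver phosphofructokinase, by 0.50 (SE 0.18, adjusted p = 0.0266). ENO2 stayed far below ENO1 per kb, with 16.2 against 186 in T98G PEPD-OE.

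Carriers of glucose, pyruvate and lactate moved in both directions in T98G, where 3 of the 9 tested (of 20 listed) rose and 2 fell, beside 17.7% and 14.7% of all genes. DESeq2 called 2 higher and 1 lower. SLC2A1, the main basal glucose carrier (GLUT1), had 129, 136 and 154 CPM in T98G PEPD-OE, against 344, 329 and 337 CPM in T98G NC. It fell by 1.27 log2 units (SE 0.13, adjusted p = 9.12e-16), and it shares exon bases with SLC2A1-DT on the other strand. SLC2A3, the high-affinity glucose carrier of neurons (GLUT3), rose by 0.95 (SE 0.31, adjusted p = 0.0108). SLC16A4, a member of the monocarboxylate carrier family that shares exon bases with LAMTOR5-AS1, rose by 1.79 (SE 0.28, adjusted p = 3.65e-08). In U251, 1 of the 9 was called, beside 8.55% of all genes, and DESeq2 also called 1. SLC16A3, which exports lactate (MCT4), had 64.8, 60.9 and 67.3 CPM in U251 PEPD-OE, against 113, 103 and 110 CPM in U251 NC, and fell by 0.76 (SE 0.17, adjusted p = 0.000738). It shares exon bases with CSNK1D.

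Among genes that steer glycolysis and the fate of pyruvate, 13 of 23 were tested. In T98G, 4 rose and 2 fell by edgeR, beside 17.7% and 14.7% of all genes, and DESeq2 called 2 higher and 1 lower. In U251 none was called by edgeR, beside 8.55% of all genes. At an unadjusted p below 0.05, 2 were lower in U251 (PFKFB3 and TXNIP), and DESeq2 called 0. PDK2 and PDK1, kinases that switch off pyruvate dehydrogenase, rose in T98G by 2.02 (SE 0.26, adjusted p = 1.45e-11) and 1.19 (SE 0.44, adjusted p = 0.0255). Both share exon bases with genes of the other strand, PDK2 with SAMD14 and PDK1 with AC078883.1. The PDK1 value rested on 41 counts in T98G PEPD-OE against 18 in T98G NC. TXNIP, a glucose-responsive protein that restrains glucose uptake, had 303, 408 and 282 CPM in T98G PEPD-OE, against 44.3, 131 and 71.5 CPM in T98G NC, and rose by 1.93 (SE 0.24, adjusted p = 4.86e-06). DLAT, a subunit of pyruvate dehydrogenase, fell by 0.78 in T98G (SE 0.22, adjusted p = 0.00232), and it shares exon bases with PIH1D2 on the other strand. Of 9 gluconeogenesis genes, 2 were tested and both rose in T98G, also by DESeq2, which called 0 in U251. G6PC3, the widely expressed glucose phosphatase, rose by 1.31 (SE 0.18, adjusted p = 1.92e-10) in T98G and fell by 0.49 (SE 0.16, adjusted p = 0.0394) in U251, and PC, pyruvate carboxylase, rose by 1.03 in T98G (SE 0.22, adjusted p = 3.62e-05). PC shares exon bases with LRFN4 on the other strand.

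Genes of the hypoxia response outside glycolysis were mostly tested, 23 of 26. In T98G, 11 rose and 1 fell with a median of 0.65, and in U251, 3 were higher and none lower, with a median of -0.04. At an unadjusted p below 0.05, edgeR had 2 of them lower in U251. DESeq2 called 9 higher and 1 lower in T98G, and 1 higher and 0 lower in U251. Of all genes tested, 17.7% rose and 14.7% fell in T98G by edgeR, and 4.13% rose and 4.42% fell in U251. CA12, a carbonic anhydrase, had 204, 203 and 205 CPM in T98G PEPD-OE, against 31.7, 44.2 and 32.6 CPM in T98G NC, and rose by 2.47 (SE 0.19, adjusted p = 4.47e-25). EGLN1, an oxygen sensor that marks HIF for destruction, rose by 1.81 in T98G (SE 0.49, adjusted p = 0.00170) and by 1.86 in U251 (SE 0.50, adjusted p = 0.00733). EGLN1 held 39 counts in T98G PEPD-OE against 11 in T98G NC, and 38 in U251 PEPD-OE against 10 in U251 NC. With so few counts, the SE can understate the error. STC2, a secreted glycoprotein, had 62.1, 43.6 and 75.5 CPM in T98G PEPD-OE, against 350, 326 and 330 CPM in T98G NC, and fell by 2.46 (SE 0.16, adjusted p = 7.74e-32). In U251 it had 46.7, 38.2 and 40.6 CPM in PEPD-OE, against 16.9, 10.3 and 15.4 CPM in NC, and rose by 1.53 (SE 0.28, adjusted p = 1.06e-05). BHLHE40, a repressor, rose by 1.72 in T98G (SE 0.30, adjusted p = 8.48e-07), and ANGPTL4, an inhibitor of lipoprotein lipase, rose by 2.06 in U251 (SE 0.50, adjusted p = 0.00244). ANGPTL4 held 40 counts in U251 PEPD-OE against 9 in U251 NC, so its SE too can understate the error. BHLHE40 shares exon bases with BHLHE40-AS1 and ANGPTL4 with RAB11B-AS1, each on the other strand. Of MYC and other regulators of growth metabolism, 7 of 10 were tested. In T98G none rose and 2 fell, among them MAX, a partner of MYC, by 0.41 (SE 0.15, adjusted p = 0.0282). In U251, 2 rose and none fell, and MYC rose by 1.21 (SE 0.35, adjusted p = 0.0138). At an unadjusted p below 0.05, edgeR had 0 of this list higher in T98G and 0 lower in U251, and DESeq2 called 0 in those directions. DESeq2 called 1 lower in T98G and 1 higher in U251, and by edgeR 14.7% of all genes fell in T98G and 4.13% rose in U251. MAX shares exon bases with AL139022.1 on the other strand.

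**Figure D5:**
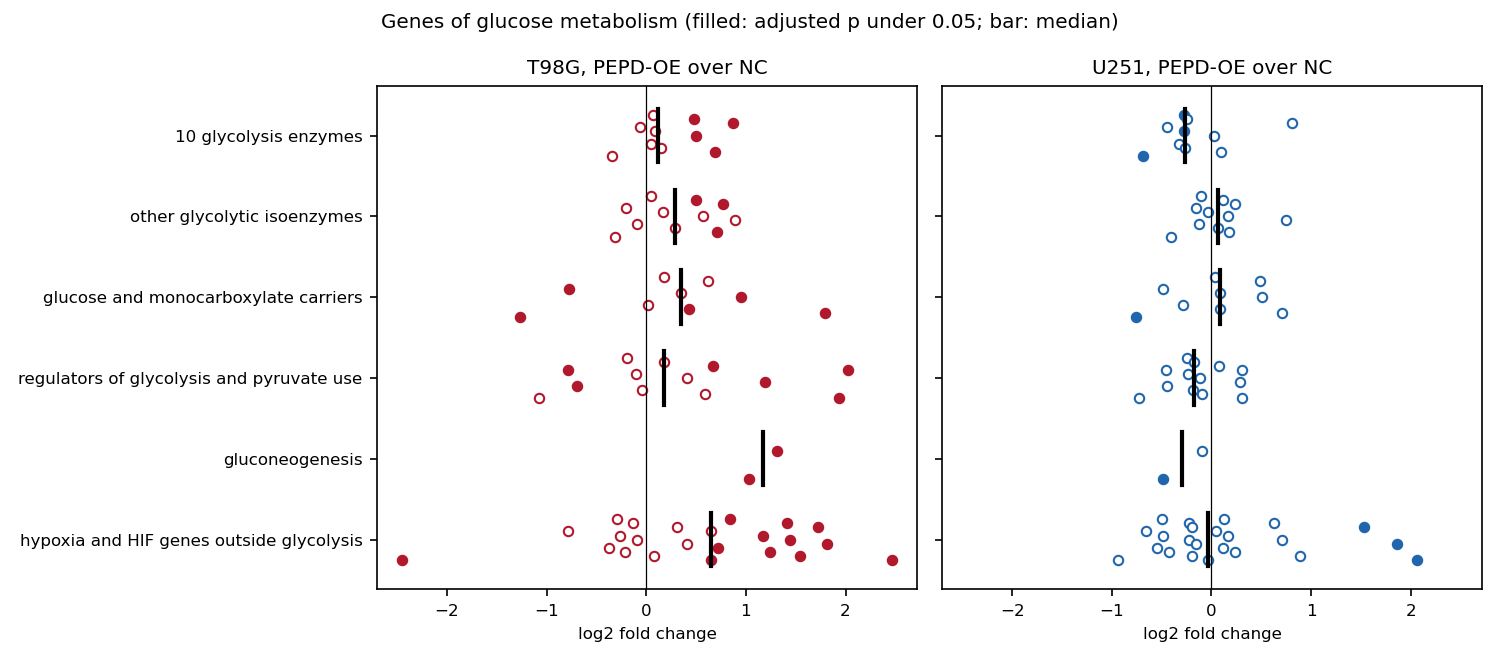
Each row is a list of genes and each point the log2 fold change of 1 tested gene, PEPD-OE over NC, in T98G (left) and U251 (right). Filled points passed an adjusted p of 0.05 and the bar marks the median. The glycolysis enzymes have medians of 0.12 in T98G and -0.27 in U251, and the hypoxia list reaches from -2.46 to 2.47 in T98G.

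For each member except GPI, the non-member gene with the most similar profile over the 4 group means was taken from 7588 candidates of at least 10 CPM on average. Likeness was the root mean square (RMS) difference of the log2 group means, each centred on its own mean. The nearest genes were RRBP1 for HK2 (RMS 0.03), TSR3 for PFKP (0.03), SNX18 for ALDOA (0.03), GATD1 for TPI1 (0.03) and KLHL7 for GAPDH (0.03). They were MORF4L1 for PGK1 (0.02), TMEM263 for ENO1 (0.01), HINT1 for PKM (0.01) and C1S for LDHA (0.14). Among the members themselves, ENO1 and PKM were most alike (0.06), followed by GAPDH and PGK1 (0.14) and by GPI and ALDOA (0.18). LDHA was least like any other, at 1.69 from HK2. These are descriptions over 4 means and carry no test.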

How the data were processed

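RNA of glioblastoma lines was sequenced in 12 libraries made from polyadenylated RNA with a stranded kit, per the labels' protocols. The authors deposited 1 table of raw read counts per Ensembl gene, with 1 column per library, not pooled and not normalized. FastQC, fastp, HISAT2, featureCounts, Subread and the GRCh38 build are named in the submitters' processing notes, without roles or versions. The sources used here give neither the strand setting nor the annotation release. Reads counted on the wrong strand would be assigned to overlapping genes of the other strand.

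Groups came from the labels. Gene symbols were those of the deposited table, which has none for 20573 of its 63241 genes. GENCODE release 29 gave strand overlaps and exon lengths, and 92.1% of the gene identifiers with 95.9% of the counts were found in it. Promoters came from RefSeq (GRCh38.p14), where all 10 members were matched by symbol. Sequences were printed only outside annotated exons.

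Counts were tested in R 4.3.3 with edgeR 4.0.16 (filterByExpr with a minimum count of 10, TMM scaling, robust quasi-likelihood fit, 1 mean for each of the 4 groups, 8 residual degrees of freedom, two-sided). Benjamini-Hochberg adjustment covered 8773 genes, and calls were made below an adjusted p of 0.05. All 10 members passed the filter. Every adjusted p in the text is from this test unless another tool is named. The SE of a log2 fold change is its size over the root of its F. For large changes on few counts, such as LDHA between the lines and PEPD, that SE can fall below counting error alone. Group values are TMM-scaled CPM. With 3 libraries against 3, an exact permutation test of 1 gene cannot go below 0.1, and none is given. Libraries are shallow, and the floor of 3 counts covers counting error only. The code of the fit was checked on simulated counts with a fixed spread and few changed genes. That check cannot speak to the scaling or the spread of these data.

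The genes named are the 10 members, their partners on the other strand, PEPD, at most 4 called genes per list and PEPD-OE comparison with the largest changes, and the nearest profile for each member. Some genes that this rule names are not reported here. LDHB, SYT1, the pseudogenes, the same-strand genes and the markers at or near 0 were named after their values were seen, as were PFKFB3 and PGAM5. The members and the lists were chosen with earlier results of these data known. Alternatives were DESeq2 1.42.0, other scalings, filters, samples, a replicate block, omission of each library, and treatment of overlaps. Scaling by library totals was added after the data were seen.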

Additional observations from a re-analysis of the deposited data

Results flagged for a closer look

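For 7 of the 10 enzymes, the change with PEPD over-expression differed between the lines by the test of the difference itself (edgeR quasi-likelihood test, Benjamini-Hochberg adjustment over all genes), which called 27.7% of all genes, 14.1% in this direction. The change in T98G minus the change in U251 was 1.19 on the log2 scale for GAPDH (adjusted p = 2.47e-17), 1.13 for ALDOA (adjusted p = 0.000213), 1.12 for GPI (adjusted p = 1.36e-07) and 0.81 for PGK1 (adjusted p = 0.000310). It was 0.41 for TPI1 (adjusted p = 0.0304), 0.36 for ENO1 (adjusted p = 0.0305) and 0.34 for PKM (adjusted p = 0.0203). The first 4 passed with each library left out in turn, and the last 3 did not pass without U251 PEPD-OE replicate 1. TPI1 and ENO1 also did not pass with upper-quartile scaling.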

How the results depend on the processing

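Over 50 values of single members, 1164 recomputed values were compared with the reported ones: 1080 kept direction and side of the threshold, 48 lost the call, 11 gained it and 25 changed sign. The causes were not tested. The 4 members called in T98G were 4 with each library left out (25% to 32.2% of all genes called). They were 2 among genes with no overlap on the other strand, where 5 members were tested and 27.3% of genes called. HK2, ALDOA, TPI1, GAPDH and ENO1 were left out of that setting, here and below, so their calls could not recur. The 3 called in U251 were 1 with no low-count filter (1.93% of all genes called) and 1 at 1 CPM in 3 libraries (2.92%). They were 1 with only the U251 groups (9.15%) and 1 with library totals (8.74%). They were 0 among genes with no overlap (5.87%), where GAPDH and ENO1 were not tested, and 1 to 3 with a library left out (4.74% to 7.92%). The 7 called for the difference of changes were 4 with no filter (8.15% of all genes called) and 4 at 1 CPM (11.9%). They were 2 with no overlap (22%) and 4 to 8 with a library left out (22.5% to 25.4%), against 27.7% of all genes as reported. The difference of changes needs all groups, so it was not run on fewer. Between the PEPD-OE groups, the 7 called were 3 with no overlap (48.9% of genes called). They were 7 to 9 with a library left out (45.6% to 51.8% of all genes). The 6 between the NC groups were 6 to 7 with a library left out (40.5% to 48%).

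The members that changed sign had not been called in those comparisons. HK2 in T98G was -0.0022 with upper-quartile scaling, -0.0102 with partner counts added, -0.17 with library totals, and -0.0571 to 0.246 with a library left out. Leaving out a library gave HK2 -0.0781 to 0.332 in U251 and -0.29 to 0.14 for the difference, and PFKP -0.29 to 0.16 in U251. PFKP in U251 was -0.0087 by DESeq2. Library totals, which moved the median gene by -0.22 in T98G, -0.30 for the difference, 0.12 between NC groups and -0.18 between PEPD-OE groups, gave -0.0683 for TPI1, -0.13 for ENO1 and -0.15 for PKM in T98G. They gave 0.0819 for GPI between NC groups and -0.0194 for ENO1 between PEPD-OE groups. PKM between PEPD-OE groups was -0.0007 with upper-quartile scaling, -0.0059 with no overlap, -0.16 with library totals, and -0.126 to 0.0893 with a library left out.

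Same-numbered libraries correlated at -0.0417 to 0.0582, and not every library correlated best with its own number, so the libraries were not taken as pairs. With the replicate block, 4 members were called in T98G (31.8% of all genes called), 3 in U251 (8.63%) and 7 for the difference (27%). The same block called 6 members between NC groups (48.6%) and 7 between PEPD-OE groups (52.4%), and PFKP in U251 was -0.0011. The block called 2793 genes in T98G, against 2837 without it. Of all genes, 750 were called in U251, against 415 by DESeq2 and 501 with no filter. In T98G, 1140 of 4176 genes with no overlap were called. PEPD stayed called under every alternative run, at 3.50 to 4.51 in T98G and 3.95 to 4.47 in U251 with a library left out. Between 464056 and 924204 counts per library limit low genes such as LDHA in U251.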
